A study of Mus musculus with 6 samples.

Results

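The carbonic anhydrase genes of the mouse inner ear were described in 6 bulk RNA sequencing libraries. The 10 members (Car1, Car2, Car3, Car4, Car8, Car9, Car11, Car12, Car13 and Car14) were taken by symbol from a deposited table of 55401 genes. They were selected on the KO and WT counts of these same libraries, with the differences known, so their genotype differences are given below as a description and not as a test of the family. Another 6 genes of the family (Car5a, Car5b, Car6, Car7, Car10 and Car15) lie outside that choice.

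The mutant group (Pou3f4 KO, n = 3 libraries) carries the genotype that the labels write as Pou3f4y/-, and the wild-type group (WT, n = 3 libraries) carries no named allele. Pou3f4 is an X-linked transcription factor of the mesenchyme around the ear. The labels call the tissue inner ear cells of all kinds, also give "interstitial cells", and give neither the kind of allele nor the age of the mice, nor whether libraries come from separate animals. The p-values therefore measure only the spread between these libraries, which may be technical in part. The stated aim of the comparison was the pigmentation of the mutant ear.

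Carbonic anhydrases turn carbon dioxide and water into bicarbonate and a proton. Cytosolic forms serve gas transport in red cells and acid secretion by osteoclasts, membrane forms act outside the cell, and the related proteins Car8, Car10 and Car11 lack the catalytic activity. In the inner ear the enzymes are known from the fibrocytes of the spiral ligament and from epithelia that control the pH of the inner ear fluids.

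Library totals ranged from 18883922 to 23323953 counts in KO and from 18409409 to 19133386 in WT. A count of 0 allows up to 3 counts, or 0.131 to 0.168 CPM (counts scaled to library size), as a limit of counting error only. Pou3f4 stood at 1.96, 1.22 and 1.62 CPM in the 3 KO libraries, against 58.3, 112 and 114 CPM in the 3 WT libraries. By this gene every library matched its KO or WT label. Reads of Xist were present in KO replicates 2 and 3 and in WT replicates 1 and 2. They were almost absent in KO replicate 1 and WT replicate 3 (0.0435 and 0.305 CPM). Genes of the Y chromosome went the other way. In those same libraries Ddx3y stood at 91.3 and 68.7 CPM and Uty at 27.4 and 20.8 CPM. Kdm5d and Eif2s3y had reads there too, and each of these genes was at 0 elsewhere. Each genotype thus mixed libraries of female and male pattern, although the mutant genotype is written as that of a male. All 10 fixed genes of the inner ear epithelium, hair cell genes Myo7a and Pou4f3 among them, had reads in every library, and their summed level was 481 to 566 CPM in KO and 337 to 632 CPM in WT. Gjb2, a gap junction protein, stood at 200.1 ± 9.02 CPM in KO and 213 ± 78.9 CPM in WT. Gjb2 is also on the list of spiral ligament fibrocyte genes used below, so both sums hold its reads. Tectb, of the tectorial membrane, stood at 94.9 ± 6.14 CPM in KO and 77.4 ± 6.05 CPM in WT. Genes of red cells, osteoclasts, nerve, brain and, unevenly, skeletal muscle and fat were present too. WT replicate 1 stood apart. It held the lowest WT level of 7 of the 10 members, as it did for 40.5% of all genes tested, and the highest WT level of Car8 and Car9. The coefficient of variation was larger in WT for all 10 members, and for 80.8% of all genes tested.

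Car3 and Car2 carried most of the carbonic anhydrase signal in every library. Levels were compared between genes per length, as CPM per kilobase of annotated exon. Car3 averaged 148 ± 5.43 CPM per kb in KO and 334 ± 66.7 CPM per kb in WT (SD, n = 3 each). Car2 averaged 127 ± 23.5 CPM per kb in KO and 144 ± 100 CPM per kb in WT. Car1 followed at 19.0 ± 0.567 CPM per kb in KO and 23.6 ± 18.3 CPM per kb in WT. Next came Car13 (16.2 ± 1.62 in KO, 14.5 ± 2.03 in WT) and Car14 (11.3 ± 0.244 in KO, 21.3 ± 3.93 in WT), on the same scale. Car11, Car12, Car8, Car4 and Car9 all averaged below Car14, down to 0.719 ± 0.210 CPM per kb in KO and 0.625 ± 0.183 CPM per kb in WT for Car9. In KO the libraries of Car3 and Car2 overlapped in range, as did Car11 with Car12, Car12 with Car8, and Car4 with Car9. In WT the ranges of Car2 and Car1, of Car1 and Car14, and of each neighbouring pair from Car11 through Car8 and Car12 to Car4 overlapped. Within each WT library, however, Car2 was above Car1 (28.1, 207 and 197 against 5.51, 23.2 and 42.1 CPM per kb in WT replicates 1 to 3). With the length of the longest transcript in place of all exons, Car3 and Car2 no longer overlapped in KO, and Car12 stood above Car11 in both groups.

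Within the summed level of the 10 members, Car3 made up 46.9%, 46.9% and 41.0% in KO replicates 1 to 3, against 77.1%, 57.1% and 55.7% in WT replicates 1 to 3. Car2 made up 35.4%, 35.9% and 42.7% in KO, against 8.44%, 31.7% and 29.4% in WT. The Car3 share was lower in each KO library than in any WT library, and the Car2 share was higher in each KO library. The summed level was 307, 329 and 359 CPM per kb in KO, against 333, 653 and 669 CPM per kb in WT, so WT replicate 1 lay within the KO range. Without Car3 it was 163, 175 and 212 CPM per kb in KO, against 76.2, 281 and 297 CPM per kb in WT, where the KO libraries fall between WT replicate 1 and the other WT libraries.

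**Figure D1:**
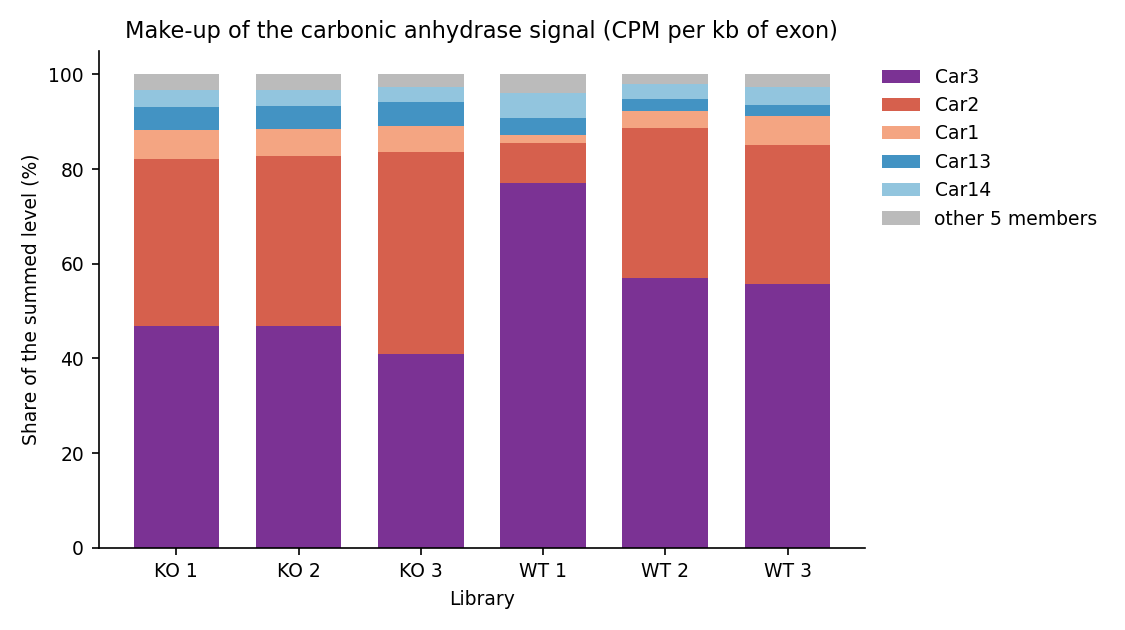
Share of each carbonic anhydrase gene (percent, vertical axis) in the summed level of the 10 members, as CPM per kb of exon, in each library (horizontal axis, 3 KO and then 3 WT). Car3 takes 41.0% to 46.9% in KO and 55.7% to 77.1% in WT, and Car2 is smallest in WT replicate 1 at 8.44%.

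Across the whole table, edgeR called 78 of 19687 genes (0.396%) at an adjusted p under 0.05, and 0.183% were called lower in KO. At an unadjusted p under 0.05 stood 19.6%. All 10 members passed the filter on low counts, and 1 of them, Car3, was called. Of the members, 8 had fitted changes below 0 and 2 above it, with a median log2 fold change (KO over WT) of −0.47, beside −0.01 over all genes tested. The libraries of the groups did not overlap for 3 members (Car3, Car4 and Car14), all lower in KO. Over all genes tested, 12.7% were lower in KO without overlap and 27.7% did not overlap in either direction. DESeq2 called 2 members, Car3 and Car14, both lower, beside 7.38% of all genes it tested called and 4.54% called lower. As the members were proposed from this contrast, nothing about the family is read from these counts.

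**Figure D2:**
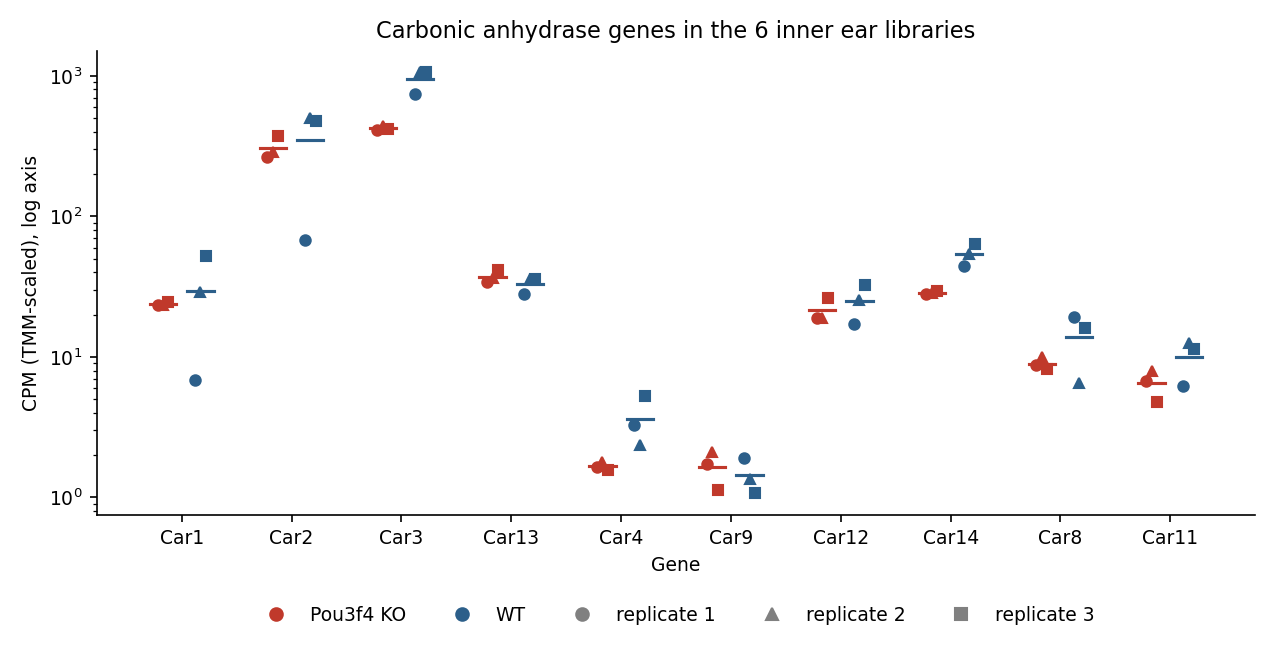
CPM (log axis) of the 10 members (horizontal axis), with KO in red left of WT in blue, one symbol per replicate and a bar at the group mean. KO libraries lie below all WT libraries for Car3, Car4 and Car14, and WT replicate 1 lies far below the others for Car1 (6.87 CPM) and Car2 (68.2 CPM).

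Among the cytosolic enzymes, Car3 was the member that fell. Car3 (ENSMUSG00000027559, mm10 chromosome 3, 14863512 to 14872523, plus strand) is a form of low hydratase activity, abundant in slow muscle and fat cells and present in fibrocytes of the ear. It stood at 412, 442 and 421 CPM in KO replicates 1 to 3, against 737, 1068 and 1067 CPM in WT replicates 1 to 3. Every KO library was below every WT library, and the KO libraries were close to each other. The level was 2.25-fold lower in KO (425 ± 15.6 CPM in KO, 957 ± 191 CPM in WT), a log2 fold change of −1.17 (SE 0.16). In bulk tissue, fewer cells of a type and less RNA per cell cannot be told apart. Settings that ended the call were upper-quartile scaling (0.386% of all genes called there) and the replicate number as a block (1 gene of the table called). The call also ended with Xist reads as a term and on leaving out WT replicate 3 or any one of the KO libraries. In each of those settings 0 genes of the whole table were called, so the loss there is not particular to Car3. The log2 fold change stayed between −1.34 and −1.08 under all alternatives tried.

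Car3 stood beside several marker lists that also differed between the libraries, and their part in its fall was not tested. The 25 skeletal muscle genes summed to 86.1, 1064 and 94.2 CPM in KO, against 8125, 268 and 12643 CPM in WT, and none was at 0 in any library. Pvalb, a gene of that list picked with its values known, stood at 44.4, 61.1 and 35.2 CPM in KO, against 107, 84.3 and 220 CPM in WT. It made up a large part of the low sums of KO replicates 1 and 3 and WT replicate 2. Skeletal actin (Acta1) stood at 98.7 ± 160 CPM in KO and 2064 ± 1918 CPM in WT, and the myosin Myh1 at 28.8 ± 43.6 CPM in KO and 618 ± 588 CPM in WT. Car3 was alike in WT replicate 2, with the lowest muscle sum of WT, and WT replicate 3, with the highest (1068 and 1067 CPM). Among the KO libraries, replicate 2 had both the highest muscle sum and the highest Car3 level (442 CPM). The 11 fat cell genes summed to 104 to 107 CPM in KO, against 981, 120 and 286 CPM in WT. Fabp4, a fatty acid carrier, stood at 56.3 ± 1.36 CPM in KO and 246 ± 264 CPM in WT, with 54.8 CPM in WT replicate 2. The lipase Pnpla2 stood at 31.1 ± 2.09 CPM in KO and 85.7 ± 47.3 CPM in WT. Plin1 and Cidec, picked with their values known, were near the counting limit in KO and higher in every WT library. Plin1 stood at 0.174, 0.0436 and 0.108 CPM in KO, against 52.7, 1.2 and 5.08 CPM in WT. Cidec stood at 0.0435, 0 and 0 CPM in KO, against 54.5, 0.782 and 3.0 CPM in WT. None of the 25 muscle genes or the 7 fat cell genes tested was called by edgeR. Of them, 13 and 7 stood at an unadjusted p under 0.05, all lower, beside 19.6% of all genes tested. DESeq2 called 4 muscle and 6 fat cell genes, all lower, beside 4.54% of all genes it tested called lower. Leptin (Lep) was at 0 in all KO libraries and in WT replicate 2. The fat cell sum was lower in every KO library than in any WT library, as Car3 was. Within WT the fat cell sum was highest in replicate 1, where Car3 was lowest among WT. Of the 15 spiral ligament fibrocyte genes, 1 was called, Otor, a secreted cochlear protein, at 131 ± 6.39 CPM in KO and 349 ± 63.2 CPM in WT (log2 fold change −1.42, SE 0.15, edgeR adjusted p = 0.0387). DESeq2 called 3, all lower. The fibrocyte median was −0.51, and 13 of the 15 had fitted changes below 0. Fitted above 0 were Tbx18 (0.40, higher in every KO library) and Dcn (0.26), neither called. The list summed to 2905 to 3052 CPM in KO, against 3104, 4658 and 4303 CPM in WT. None of the 15 genes was at 0 in any library. Coch, the main secreted fibrocyte protein, was picked with its values known and was not called, at 256 ± 8.56 CPM in KO and 613 ± 356 CPM in WT.

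The genes whose pattern over the 6 libraries was most like that of Car3 were Ncmap, Ache and Drp2. Likeness was the root mean square difference of log2 CPM after each gene was centred on its own mean, and it was 0.0745, 0.0940 and 0.110, while Car3 itself had an SD of 0.661 on that scale. Ncmap and Drp2 belong to the Schwann cell and myelin list, and Ache encodes acetylcholinesterase. Of the 13 tested genes of that list, 4 fell, among them Fa2h (−1.79), Pmp22 (−1.26) and Prx (−0.95, log2 fold changes, edgeR adjusted p = 0.049 for each), and none rose. DESeq2 called 9, all lower. Its sums were 3238, 3633 and 3186 CPM in KO, against 4593, 8314 and 7431 CPM in WT, so WT replicate 1 was lowest of WT there as for Car3. Of the 13 cartilage genes, 12 had fitted changes below 0 and 3 were called, all falling (Col2a1 −1.09, Col9a1 −0.79 and Col9a3 −0.70). DESeq2 called 6, all lower. Col11a2 went the other way and was not called, at 1880 ± 174 CPM in KO and 1544 ± 235 CPM in WT, higher in every KO library. The cartilage sum, to which Col2a1 gave the most, was not lowest in WT replicate 1 (5898 to 6763 CPM in KO, and 10451, 9755 and 10894 CPM across the 3 WT libraries).

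**Figure D3:**
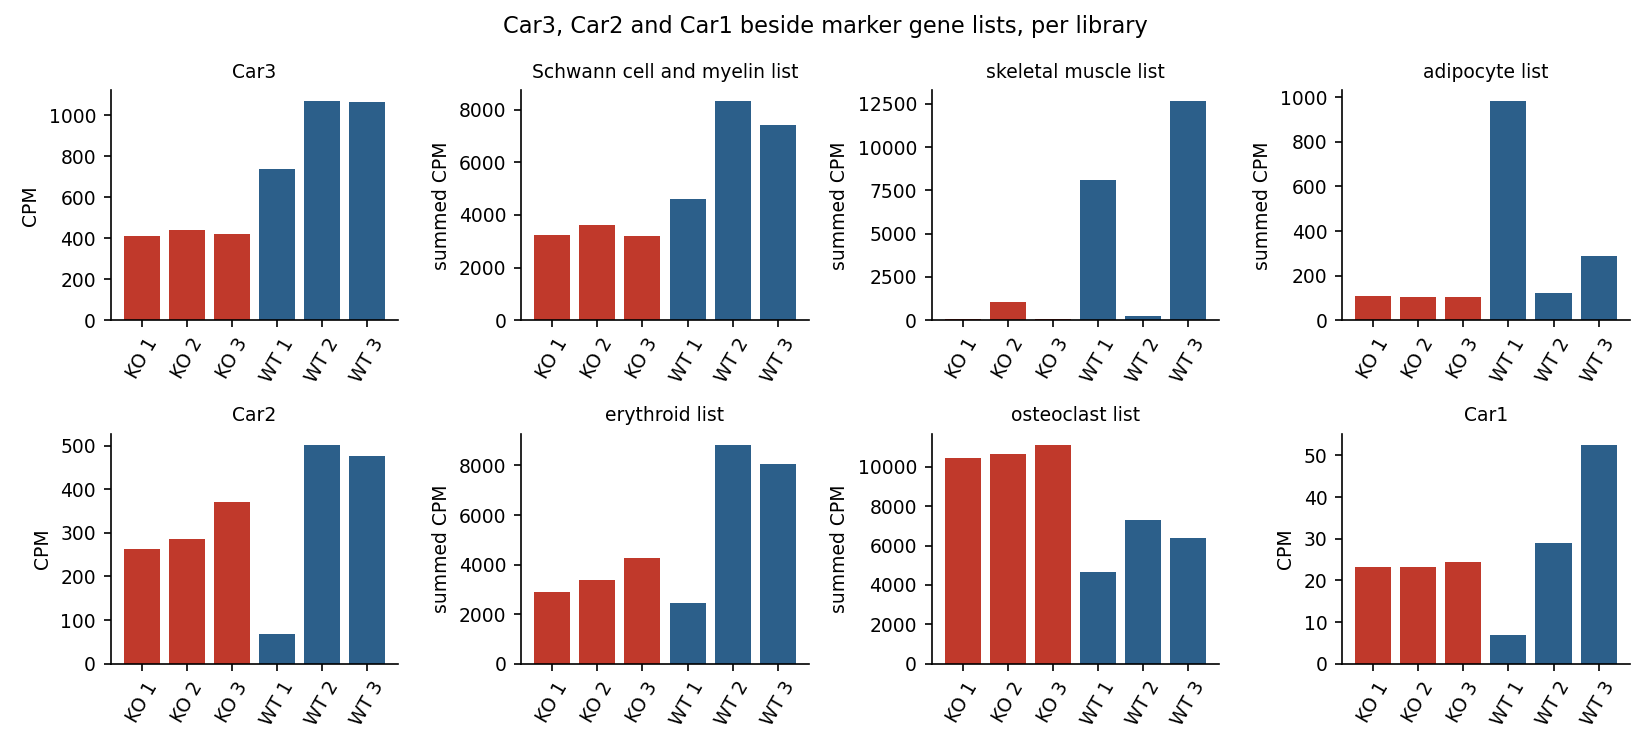
Bars give CPM of Car3, Car2 and Car1, or summed CPM of a marker list (vertical axes, from 0), in KO replicates 1 to 3 (red) and WT replicates 1 to 3 (blue). Car3 is lower in all KO libraries, the muscle list is highest in WT replicates 1 and 3, and Car2, Car1 and the erythroid list are all lowest in WT replicate 1.

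Car2 and Car1 varied more within WT than between the genotypes. Car2 (ENSMUSG00000027562, chromosome 3, 14886273 to 14900770, plus strand) is the fast cytosolic enzyme of red cells, osteoclasts and glia, and its loss in humans causes dense bone. It stood at 263, 286 and 371 CPM in KO, against 68.2, 502 and 476 CPM in WT. WT replicate 1 was below all KO libraries and the other WT libraries above them. The fitted log2 fold change of −0.19 (SE 0.64) was not called. Car1 (ENSMUSG00000027556, chromosome 3, 14766216 to 14808368, minus strand), a slower enzyme of red cells, stood at 23.3, 23.2 and 24.5 CPM in KO, against 6.87, 28.9 and 52.5 CPM in WT (log2 fold change −0.32, SE 0.61). The KO libraries were alike and again fell between WT replicate 1 and the rest. Without WT replicate 1, Car2 was called lower (−0.69, beside 9.06% of all genes called there and 5.46% called lower), while Car1 at −0.80 was not.

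The summed level of red cell genes was lowest in WT replicate 1, as were Car1 and Car2, although Hbb-bs and Hba-a1 were lowest in KO replicate 1. The 20 erythroid genes in the table, haemoglobin chains among them, summed to 2906, 3386 and 4285 CPM in KO, against 2444, 8828 and 8071 CPM in WT, and none was at 0 in any library. None was called by edgeR (2 at an unadjusted p under 0.05, both lower), and DESeq2 called 1 lower. Their median log2 fold change was −0.51. Hbb-bs stood at 969 ± 242 CPM in KO and 2223 ± 1169 CPM in WT, and Hba-a1 at 881 ± 209 CPM in KO and 1839 ± 969 CPM in WT. Car2 equalled 9.03%, 8.45% and 8.65% of the erythroid sum in KO, against 2.79%, 5.68% and 5.90% in WT, so relative to this sum, to which Hbb-bs and Hba-a1 gave the most, it was higher in each KO library. That order did not hold for every gene of the list taken alone. Gata1, a red cell transcription factor, averaged 18.9 ± 3.82 CPM in KO and 19.8 ± 14.7 CPM in WT, and Car2 relative to Gata1 was highest in WT replicate 1. The genes most like Car2 over the 6 libraries were Nfe2, Gata1 and Tal1 (root mean square differences of 0.107, 0.142 and 0.143), which encode transcription factors of the red cell lineage. Those most like Car1 were Tubb1, Ngp and Prtn3 (0.0977, 0.106 and 0.151), a platelet tubulin and a pair of neutrophil granule proteins.

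The summed level of osteoclast genes was ordered like Car2 within each genotype but not between them. Single genes of the list, such as Mmp9, did not all keep that order. The 14 genes summed to 10430, 10647 and 11114 CPM in KO, against 4639, 7282 and 6369 CPM in WT, with none at 0 in any library, so the sum was higher in every KO library than in any WT library. None was called by edgeR (12 at an unadjusted p under 0.05, all higher, with a list median of 0.85), whereas DESeq2 called 11, all higher. Ctsk, which degrades bone collagen, stood at 4139 ± 175 CPM in KO and 2164 ± 564 CPM in WT, and Mmp9 at 3371 ± 175 CPM in KO and 2111 ± 366 CPM in WT. Car2 equalled 2.52%, 2.69% and 3.34% of the osteoclast sum in KO, against 1.47%, 6.89% and 7.48% in WT. Which cells the Car2 reads came from was not tested.

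Car13 had a fitted change near that of Car2 in size, with a smaller error. Car13 (ENSMUSG00000027555, chromosome 3, 14641727 to 14663002, plus strand), a broadly expressed enzyme, stood at 34.1, 36.4 and 41.4 CPM in KO, against 27.9, 36.1 and 35.8 CPM in WT. The groups overlapped, with WT replicate 1 lowest, and the log2 fold change was 0.17 (SE 0.13). The 4 cytosolic members lie side by side within 259044 bp of chromosome 3, in the order Car13, Car1, Car3 and Car2. Only 2 other genes of the table lie in that stretch, the pseudogenes Gm5843 with 0 counts and Gm16399 with 7 counts over all libraries. Car3 and Car2 are neighbours with 13749 bp between them, and of these only Car3 was called in the fit with all libraries. The ratio of Car3 to Car2 in CPM was 1.57, 1.55 and 1.14 in KO, against 10.8, 2.13 and 2.24 in WT replicates 1 to 3.

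**Figure D4:**
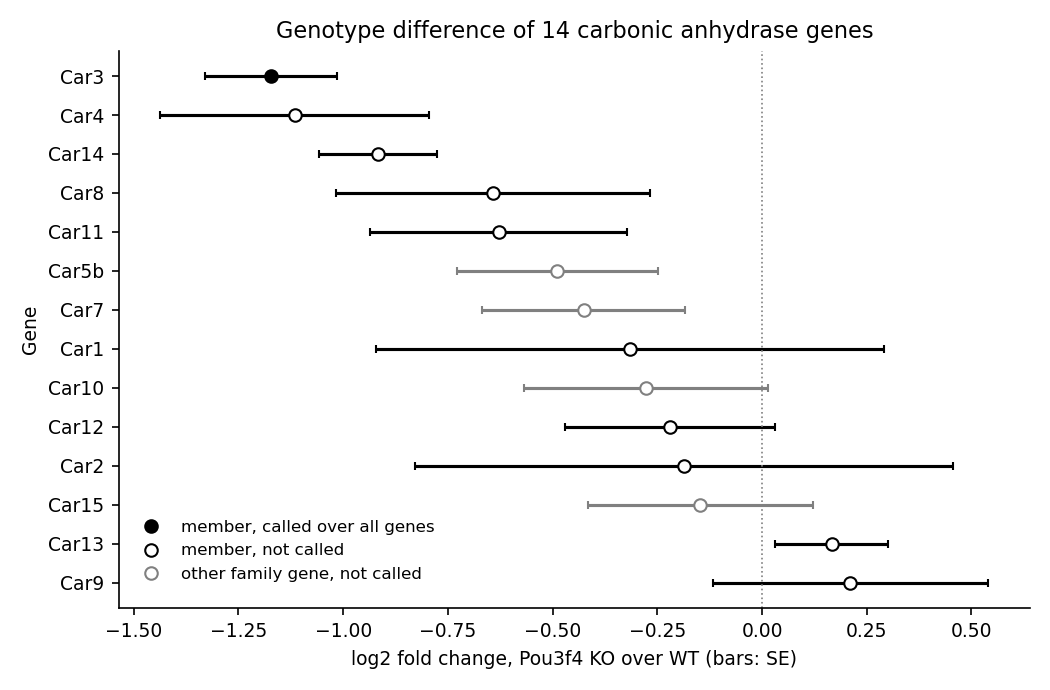
Log2 fold change, KO over WT (horizontal axis, bars are SE), of the 14 carbonic anhydrase genes tested (vertical axis), with members in black and other family genes in grey, and a filled point for a gene called over all genes. Car3 at −1.17 is the only filled point, Car4 and Car14 lie next to it at −1.12 and −0.92, and Car13 and Car9 lie above 0.

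Of the membrane enzymes, Car14 and Car4 were lower in every KO library. Car14 (ENSMUSG00000038526, chromosome 3, 95897768 to 95904691, minus strand) spans the membrane and is known from neurons, glia and kidney. It stood at 28.2, 28.4 and 29.4 CPM in KO, against 44.1, 54.1 and 64.1 CPM in WT, with a log2 fold change of −0.92 (SE 0.14). The KO libraries were almost level and lay under the lowest WT library. Car14 was not called in the fit with all libraries (edgeR adjusted p = 0.0598, beside 0.049 for Car3, so both lie near the threshold). It was called lower by DESeq2 (7.38% of all genes called there, 4.54% lower) and without the filter on low counts (0.311% called, 0.141% lower). The same held without WT replicate 1 (9.06% called, 5.46% lower) and without WT replicate 2 (3.78% called, 2.37% lower). Exons of Aph1a on the opposite strand cover 17.5% of the exons of Car14, and whether the counts used strand is not given in the sources used here. Aph1a stood at 75.4, 74.2 and 76.3 CPM in KO, against 92.6, 82.6 and 73.9 CPM in WT (log2 fold change −0.14, SE 0.095, not called). Its part in the Car14 counts was not tested.

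Car4 (ENSMUSG00000000805, chromosome 11, 84957786 to 84966044, plus strand), which is anchored to the surface of capillary endothelium, had few reads. It held 38, 41 and 29 counts in KO, against 59, 45 and 103 counts in WT, which is 1.65, 1.79 and 1.57 CPM in KO and 3.30, 2.35 and 5.24 CPM in WT. The groups did not overlap, and the log2 fold change of −1.12 (SE 0.32) was not called. WT replicate 3 had the highest level, and without it the fold change was −0.75. Of the 9 endothelial genes none was called by edgeR (2 at an unadjusted p under 0.05) or by DESeq2. Pecam1 and Cdh5, adhesion proteins of vessel walls, stood at 96.7 ± 5.75 and 145 ± 8.51 CPM in KO and at 116 ± 52.7 and 123 ± 24.6 CPM in WT. Their list summed to 427 to 464 CPM in KO and 429 to 509 CPM in WT.

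Car12 and Car9 are transmembrane enzymes, both known targets of the hypoxia response. Car12 (ENSMUSG00000032373, chromosome 9, 66713686 to 66766845, plus strand) stood at 19.0, 19.0 and 26.2 CPM in KO, against 17.1, 25.3 and 32.3 CPM in WT (log2 fold change −0.22, SE 0.25). Car9 (ENSMUSG00000028463, chromosome 4, 43506966 to 43513729, plus strand) held only 40, 48 and 21 counts in KO, against 34, 26 and 21 counts in WT, which is 1.74, 2.09 and 1.14 CPM in KO and 1.90, 1.36 and 1.07 CPM in WT (0.21, SE 0.33). The groups overlapped for both genes, and neither was called. Gm12454 on the opposite strand covers 9.29% of the exons of Car9 and held 82 counts in all, against 190 for Car9. The genes most like Car9 were Junb, Tpbg and Ier2 (0.0780, 0.0894 and 0.0901). Of the 18 hypoxia genes, 1 rose, P4ha1, a prolyl hydroxylase of collagen, at 259 ± 5.09 CPM in KO and 164 ± 11.7 CPM in WT (log2 fold change 0.66, SE 0.08, edgeR adjusted p = 0.049). The others were not called and 13 of the 18 had fitted changes below 0, with a list median of −0.23. DESeq2 called P4ha1 higher, and the glucose transporter Slc2a1 and the mitophagy gene Bnip3 lower.

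Promoter sequences were at hand for 5 of the 10 members (RefSeq, build GRCm38.p6), Car4, Car9, Car11, Car12 and Car14. The 250 bases before the start are shown for the membrane enzymes, because Car14 and Car4 were lower in KO without overlap and Car9 and Car12 are hypoxia targets. Letters in capitals mark the hypoxia core ACGTG, searched on both strands and therefore also as CACGT.
Car14, chr3:95904686-95904935, minus strand: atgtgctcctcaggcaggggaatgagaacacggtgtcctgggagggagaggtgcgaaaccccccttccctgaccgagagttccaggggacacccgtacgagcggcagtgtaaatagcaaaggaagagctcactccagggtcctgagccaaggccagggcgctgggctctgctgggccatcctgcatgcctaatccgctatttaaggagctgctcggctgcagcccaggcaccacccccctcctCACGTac
Car4, chr11:84957504-84957753, plus strand: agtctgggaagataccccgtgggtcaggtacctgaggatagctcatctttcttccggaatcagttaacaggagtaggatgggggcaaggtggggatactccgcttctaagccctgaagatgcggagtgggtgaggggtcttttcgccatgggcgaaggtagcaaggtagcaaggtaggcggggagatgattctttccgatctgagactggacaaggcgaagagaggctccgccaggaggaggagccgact
Car9, chr4:43506776-43507025, plus strand: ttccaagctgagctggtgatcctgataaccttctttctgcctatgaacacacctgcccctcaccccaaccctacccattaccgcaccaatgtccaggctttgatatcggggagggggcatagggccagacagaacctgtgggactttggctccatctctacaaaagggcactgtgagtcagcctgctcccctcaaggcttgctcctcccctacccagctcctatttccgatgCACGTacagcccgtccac
Car12, chr9:66713436-66713685, plus strand: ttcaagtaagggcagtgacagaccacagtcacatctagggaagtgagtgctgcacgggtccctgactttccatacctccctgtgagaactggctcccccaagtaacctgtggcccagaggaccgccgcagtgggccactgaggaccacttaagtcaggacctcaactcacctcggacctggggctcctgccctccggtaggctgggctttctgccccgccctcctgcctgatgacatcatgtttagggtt

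The core occurred 1 time in Car14, 7 bases before the start, and 1 time in Car9, 18 bases before it, each on the opposite strand of the gene. These distances are from the RefSeq start, and by the gene coordinates given above the Car9 core lies inside the gene and the Car14 core overlaps its first bases. It was not in these windows of Car4, Car12 or either of the 2 starts of Car11, and 16.6% of 32851 promoters of that length hold it. The first 7 letters of the POU octamer, ATGCAAA on either strand, were in none of the 6 member windows and in 4.12% of all promoters. The start used for Car4 lies outside the transcripts of the GENCODE M21 annotation. Car1, Car2, Car3, Car8 and Car13 have no promoter shown here.

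The related proteins Car8 and Car11 were lower on average in KO, with overlapping groups. Car8 (ENSMUSG00000041261, chromosome 4, 8143362 to 8239041, minus strand) binds the inositol trisphosphate receptor and is known from Purkinje cells. It stood at 8.71, 9.94 and 8.17 CPM in KO, against 19.4, 6.52 and 15.97 CPM in WT (log2 fold change −0.64, SE 0.37). WT replicate 2 was the lowest of the 6 libraries, and without it Car8 was called lower at −0.98 (beside 3.78% of all genes called there and 2.37% called lower). Car11 (ENSMUSG00000003273, chromosome 7, 45699843 to 45704682, plus strand), a secreted protein known mostly from brain, stood at 6.75, 7.89 and 4.81 CPM in KO, against 6.26, 12.5 and 11.3 CPM in WT (−0.63, SE 0.31). Only WT replicate 1 lay within the KO range.

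Markers of brain and neurons also varied between the libraries, and their part in the levels of both genes was not tested. The 13 brain genes summed to 386, 448 and 344 CPM in KO, against 224, 633 and 826 CPM in WT, and 0 were called by edgeR (0 at an unadjusted p under 0.05) or by DESeq2. Mobp, of central myelin, stood at 108 ± 13.3 CPM in KO and 182 ± 132 CPM in WT, and Gfap, of astrocytes, at 64.3 ± 10.1 CPM in KO and 91.7 ± 38.5 CPM in WT. The lowest WT level was in replicate 1 for the brain sum and for Car11, and not for Car8. None of the brain or neuron genes was at 0 in any library, and the Purkinje marker Pcp2, picked with its values known, was at 1.84 ± 0.402 CPM in KO and 1.78 ± 0.630 CPM in WT. Of the 12 neuron genes, 1 fell, Thy1, at 38.5 ± 4.96 CPM in KO and 74.2 ± 7.65 CPM in WT (log2 fold change −0.95, edgeR adjusted p = 0.049), and all 12 had fitted changes below 0. DESeq2 called 5, all lower. The neuron sums were 1166, 1257 and 928 CPM in KO, against 1165, 2580 and 1724 CPM in WT.

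The other family genes were all low. Car10, the third related protein, averaged 9.37 ± 2.31 CPM in KO and 11.4 ± 3.58 CPM in WT, and the mitochondrial Car5b averaged 3.26 ± 0.801 CPM in KO and 4.59 ± 0.723 CPM in WT. The cytosolic Car7 averaged 2.72 ± 0.463 CPM in KO and 3.65 ± 0.799 CPM in WT. Car15 averaged 1.37 ± 0.217 CPM in KO and 1.52 ± 0.353 CPM in WT, and its level is uncertain because Gm20518 on the same strand covers 65.7% of its exons. All 4 had fitted changes below 0, from −0.49 to −0.15 on the log2 scale, and none was called by edgeR (0 at an unadjusted p under 0.05) or by DESeq2. The secreted Car6 and the mitochondrial Car5a held 11 and 10 counts over all libraries and were not tested.

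Transporters that move bicarbonate, protons or carbon dioxide beside these enzymes were compared from a list of 30 genes, of which 24 were tested. None was called by edgeR (9 at an unadjusted p under 0.05, 4 higher and 5 lower), and the list median was −0.13. Basigin (Bsg), which carries lactate transporters to the membrane, stood at 533 ± 4.91 CPM in KO and 535 ± 64.7 CPM in WT. Slc4a1, the bicarbonate exchanger of red cells, stood at 250 ± 98.2 CPM in KO and 384 ± 286 CPM in WT. DESeq2 called 3, all higher, which were named for that reason. Slc4a2, the bicarbonate exchanger of osteoclasts, stood at 146 ± 9.67 CPM in KO and 88.3 ± 17.5 CPM in WT. Tcirg1, a proton pump subunit, stood at 169 ± 2.63 CPM in KO and 99.6 ± 16.04 CPM in WT, and the chloride transporter Clcn7 at 89.0 ± 4.80 CPM in KO and 57.9 ± 10.4 CPM in WT. Slc26a4 (pendrin), which secretes bicarbonate into the inner ear fluid and was picked with its values known, was at 6.53 ± 1.51 CPM in KO and 9.92 ± 2.43 CPM in WT. Of 10 genes of strial marginal cells, which secrete that fluid, none was called by edgeR (1 at an unadjusted p under 0.05, lower) and DESeq2 called 1 lower, with sums of 839 to 923 CPM in KO and 721 to 963 CPM in WT. The endocytic receptor Lrp2 stood at 45.6 ± 7.18 CPM in KO and 44.3 ± 19.3 CPM in WT.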

How the data were processed

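Inner ear RNA of 3 Pou3f4 KO and 3 WT libraries was analysed from read counts per gene. The counts were deposited by the authors as whole numbers without normalization. Per the labels' protocols, RNA was extracted with TRIzol and libraries were made with a stranded mRNA kit. Per the submitters' processing notes, HISAT2, HTSeq, Cufflinks and Trimmomatic were used with mm10. Which of them made the table, its annotation and its use of strand are not stated there.

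Here edgeR 4.0.16 (R 4.3.3) kept 19687 genes with filterByExpr (minimum count 10), scaled libraries by TMM and compared KO with WT by the quasi-likelihood test, genotype alone, with Benjamini-Hochberg adjustment over all genes tested and a threshold of 0.05. The adjusted p-values printed come from that fit. CPM use TMM-scaled totals, and fold changes are KO over WT. Exon lengths and overlaps come from GENCODE M21, where 55141 of 55401 gene identifiers were found. The likeness search covered tested genes with a proper name and a mean of at least 1 CPM, with 0.5 added to CPM before log2. The fits were also run on simulated counts, and the outcome is not reported here. Those counts had the same dispersion for every gene in both groups, so they did not copy the larger spread of the WT libraries.

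The members and lists were chosen with earlier results of these data known. Named were all members, other family genes with counts, up to 6 called genes of each list (otherwise the 2 with the highest mean CPM) and the 3 genes most like Car1, Car2, Car3 and Car9. A few genes that this rule names are not reported here. Alternatives were RLE and upper-quartile scaling, other filters, DESeq2 1.42.0, limma-voom (limma 3.58.1), the replicate number as a block, Xist reads as a term, a table without genes of muscle, haemoglobin and mitochondria, leaving out each library, another gene length and shares of CPM.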

Additional observations from a re-analysis of the deposited data

How the results depend on the processing

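The fold changes of Car3, Car4, Car8, Car9, Car11, Car13 and Car14 kept their sign under all 15 alternatives, while that of Car1 changed sign in 3, of Car2 in 4 and of Car12 in 1. The number of members called was 1 in the fit as reported, 2 with DESeq2 or without the filter on low counts, and 0 with upper-quartile scaling or with Xist reads as a term. Called genes in the whole table numbered 78, with 1480 by DESeq2 and 0 with Xist reads as a term. Called transport genes numbered 0, with 1 without the filter and 3 by DESeq2. Called hypoxia genes numbered 1, with 3 by DESeq2 and 0 with Xist reads as a term. Called cell type genes numbered 9, with 46 by DESeq2 and 0 with Xist reads as a term. Leaving out 1 library gave 0 to 3 members, 0 to 1814 genes of the table, 0 to 3 transport genes, 0 to 3 hypoxia genes and 0 to 65 cell type genes. Calls rose without WT replicate 1 (3 members, 1814 genes) or WT replicate 2 (3 members, 760 genes), and 0 genes were called without WT replicate 3 or any one KO library. With the replicate number as a block, 0 members, 1 gene of the table, 0 hypoxia genes and 1 cell type gene were called. Libraries with the same number did not deviate together (correlations of −0.132, −0.320 and −0.194). With deviations from means of only 3 libraries per group, this cannot decide whether the number marks a shared preparation. With the longest transcript as length, the summed member level was 492 CPM per kb in KO and 856 in WT, beside 331 in KO and 552 in WT over all exons. The Car3 share of CPM was 49.5% in KO, beside 44.9% per length. The cause of these changes was not tested. For Car9 and Car4, counts of 21 to 103 per library limit the precision.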
